A study of Homo sapiens with 27 samples.

Results

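The effect of a second TPR shRNA ('TPR D') on the transcripts of unfractionated U2OS cells was examined by comparing the 3 total RNA libraries of TPR D cells with the 3 total RNA libraries of control cells. U2OS is a human osteosarcoma cell line. Cells received a lentiviral shRNA against TPR (TPR A or TPR D) or a control shRNA for 5 days, in 3 replicates per shRNA. Nuclear, cytoplasmic/ER and total poly(A)+ RNA of each replicate was sequenced, which gave 27 libraries in 9 groups. The deposited column names of the replicate 1 libraries follow another series than those of replicates 2 and 3. What the series stand for is not stated. The 6 total libraries of TPR D and control cells are compared here, and the rest share in the estimate of the spread between replicates. The nuclear, cytoplasmic/ER and total libraries of the same replicate enter this estimate as if they were independent, which they are not. The adjusted p-values of the main fit rest on this. The study calls the 3 replicates biological replicates, but whether they are separate cultures is not stated in the labels. The p-values therefore measure the spread between these samples. All groups carry a lentiviral shRNA in the same cell line, so the control is not untreated cells. FPKM (fragment numbers scaled to transcript length and library size) were deposited for 34464 genes, and the comparison covered the 14611 nuclear-encoded genes that averaged over 1 FPKM across all libraries. The minimum fell between genes at 1.00007 and 0.99986 FPKM, with 1789 genes between 1 and 2 FPKM kept and 1797 genes between 0.5 and 1 FPKM left out.

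TPR is a long coiled-coil protein that forms the filaments of the nuclear basket, the structure on the nucleoplasmic face of the nuclear pore. The basket anchors factors that hand mature mRNA to the pore, among them the TREX-2 complex. Total RNA holds the transcripts of the nucleus and the cytoplasm together, so it shows the level of a transcript in the cell and not where the transcript lies. Because FPKM are relative, a change in the whole RNA content of a cell would not be seen in them, and in RNA from many cells a change in a few cells cannot be told apart from a smaller change in all of them.

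The reads behind the values were estimated from the steps between low values. On a transcript of 1 kb, each FPKM corresponded to 41.7 to 66.4 reads in the 6 libraries. The total library labelled control replicate 2 stood apart from the rest. Transcripts of the 13 mitochondrial genes made up 0.738% of its summed FPKM, against 17.2% to 24.7% in the other 5 total libraries, and its log2 profile had a correlation of 0.972 across genes with the mean nuclear profile and 0.940 with the mean total profile. The total library of TPR D replicate 1 was closest to its own fraction but less close than the others, with a correlation of 0.946 with the mean total profile, where the remaining 4 libraries had 0.970 to 0.974. The nuclear library labelled control replicate 2 held 21.8% mitochondrial transcripts, against at most 2.42% in the other nuclear libraries, and its profile had a correlation of 0.976 with the mean total profile. Whether the total and nuclear libraries of this replicate were exchanged was not tested, and the labels were kept. The means behind these correlations left out the total and nuclear libraries of control replicate 2. Results are therefore repeated without control replicate 2 (all 3 fractions), and where stated also without TPR D replicate 1.

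TPR mRNA was low in all TPR D libraries. The gene (ENSG00000047410, GRCh37 chromosome 1, 186280784 to 186344825, minus strand) was at 28.2, 25.7 and 25.3 FPKM in control replicates 1, 2 and 3 and 3.23, 4.74 and 6.01 FPKM in TPR D replicates 1, 2 and 3. The highest TPR D library was far below the lowest control library, and control replicate 2 was no exception for this gene. The level was 5.44-fold lower with TPR D (log2 change -2.44, standard error 0.36, limma adjusted p = 0.0016), and the 2-sided exact permutation p over the 6 libraries was 0.1, the smallest that 3 against 3 libraries allow. TPR A, the other shRNA, gave -2.59 against the same controls. The other measured basket genes, NUP153, NUP50 and ZC3HC1, changed by -0.01, 0.07 and -0.18 and were not past the threshold.

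Across the transcriptome, limma on all 27 libraries called 110 genes changed at an adjusted p under 0.05, 0.753% of those tested. Of these, 46 were higher with TPR D (0.315%) and 64 lower (0.438%), and on the values as deposited, with no further scaling, the split was 34 higher and 87 lower. The rises that were called had log2 changes of 0.67 to 3.07 and the falls -0.62 to -2.44, while the median over all genes was -0.01. In each called gene the 3 TPR D libraries lay on 1 side of the 3 control libraries, as they did in 16.1% of all genes tested. Without control replicate 2, limma called 30 genes higher (0.205%) and 40 lower (0.274%), and 46 of the 110 genes were among them. Without control replicate 2 and TPR D replicate 1, 11 genes were higher and 16 lower, 17 of them shared with the 110. Leaving out TPR D replicate 3 alone lowered the count most, to 11 higher and 20 lower, and leaving out control replicate 1 gave 21 and 19. The number of calls also rested on which libraries set the spread. With the 9 total libraries alone in the fit, 0 genes were called higher and 5 lower, although 1761 genes had an unadjusted p under 0.05. With all 27 libraries 2137 genes (14.6%) had an unadjusted p under 0.05. Large changes were not always called, since only 9 of the 88 genes with a log2 change beyond 2 in either direction passed.

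**Figure D1:**
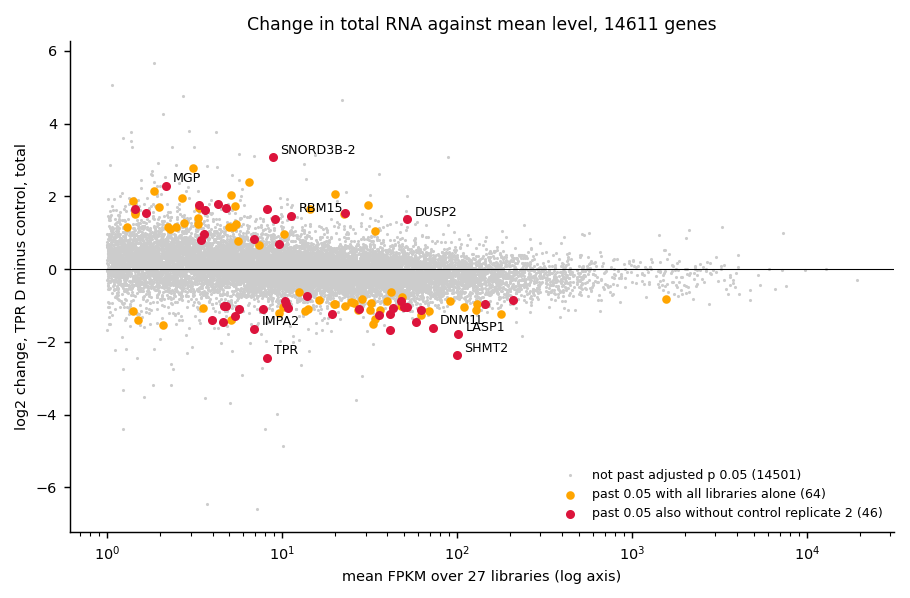
Log2 change in total RNA (TPR D minus control, vertical axis) against the mean FPKM over 27 libraries (horizontal log axis), 1 point per gene for 14611 genes. The 46 crimson genes passed an adjusted p of 0.05 both with all libraries and without control replicate 2, the 64 orange genes passed with all libraries and not without that replicate, and called falls lie at a higher median level (28 FPKM) than called rises (4.53 FPKM).

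The genes described next are those that were called both with all libraries and without control replicate 2 and that have a symbol, the 15 with the largest rise and the 15 with the largest fall. Of these 30 genes, 16 were still past the threshold without TPR D replicate 1, 17 without TPR D replicate 3, 17 without control replicate 1, and 11 without both control replicate 2 and TPR D replicate 1. BCL11B, RBM15, AOPEP, DUSP2, CHRNA3, SHMT2, LASP1, IMPA2, DNM1L and GLUD1 were among those 11. With fewer libraries setting the spread, 3 of the 30 were past the threshold with the 9 total libraries, 1 with these less control library 2, and 0 with the 6 libraries compared or with replicates 2 and 3 alone.

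Regulators of transcription and signalling among the named rises are given first. BCL11B, a zinc finger repressor known from T cell development, was low throughout, with 0.928, 1.06 and 0.741 FPKM in the controls and 2.36, 4.08 and 2.5 FPKM with TPR D. The groups did not overlap and the change was 1.65 (limma adjusted p = 0.00449). DUSP2, a nuclear phosphatase that inactivates MAP kinases and is induced by growth signals (ENSG00000158050, GRCh37 chromosome 2, 96808908 to 96811179, minus strand), was at 20.7, 33.1 and 23 FPKM in control replicates 1, 2 and 3 and 90.5, 47.1 and 54.2 FPKM in TPR D replicates 1, 2 and 3. TPR D replicate 1 was the highest library and control replicate 2 the highest control, still below the lowest TPR D library (log2 change 1.36, standard error 0.23, limma adjusted p = 0.00418). TSC22D3, which encodes the glucocorticoid-induced leucine zipper protein GILZ, was at 3.6, 4.76 and 3.96 FPKM in the controls and 8.68, 6.19 and 6.2 FPKM with TPR D, a smaller rise of 0.82 (limma adjusted p = 0.0412).

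Of the other named rises, RBM15, an RNA-binding subunit of the complex that writes m6A on RNA (ENSG00000162775, GRCh37 chromosome 1, 110881128 to 110889303, plus strand), was at 6.54, 8.13 and 4.85 FPKM in control replicates 1, 2 and 3 and 14, 21.9 and 15.5 FPKM in TPR D replicates 1, 2 and 3. The lowest TPR D library exceeded the highest control, which was replicate 2, and the change was among the firmest of the rises (log2 change 1.46, standard error 0.21, limma adjusted p = 0.0016). It was 1.73 (limma adjusted p = 0.00759) without control replicate 2 and TPR D replicate 1. ZNF625 was at 2.81, 2.5 and 2.16 FPKM in the controls and 11.5, 8.17 and 6.28 FPKM with TPR D (log2 change 1.80, standard error 0.29, limma adjusted p = 0.00356). ZNF850 was at 2.27, 2.09 and 2.15 FPKM in the controls and 4.88, 9.2 and 8.23 FPKM with TPR D (log2 change 1.76, standard error 0.36, limma adjusted p = 0.0201). Both encode C2H2 zinc finger proteins and lie on chromosome 19, and in both the control libraries were close together and TPR D replicate 1 was at one end of its group. SNORD3B-2, a copy of the gene for the U3 small nucleolar RNA that guides pre-rRNA cleavage, had the largest rise of the called genes, with 3.35, 2.16 and 3.1 FPKM in the controls and 53.5, 19 and 12.3 FPKM with TPR D. TPR D replicate 1 was far above the other TPR D libraries, which were still above the controls (log2 change 3.07, standard error 0.50, limma adjusted p = 0.00371). Because U3 has several near-identical copies, its reads may not be assigned to the right one. The RNA was poly(A)+ selected, and the study quantified reads against protein-coding and long non-coding transcripts. The value may therefore not measure mature U3. BAZ2B-AS1, a lncRNA antisense to BAZ2B, was at 1.83, 1.87 and 2.36 FPKM in the controls and 8.08, 5.34 and 5.08 FPKM with TPR D (log2 change 1.62, standard error 0.27, limma adjusted p = 0.00449). The library kit keeps strand, but the strand setting of the quantification is not given in the sources used here, so its reads and those of BAZ2B may not be fully separated.

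The other rises encoded secreted, membrane and metabolic proteins. MGP, the matrix Gla protein that restrains calcification (ENSG00000111341, GRCh37 chromosome 12, 15033798 to 15038791, minus strand), was at 0.486, 1.26 and 0.269 FPKM in control replicates 1, 2 and 3 and 7.12, 1.32 and 2.79 FPKM in TPR D replicates 1, 2 and 3. The lowest TPR D library and control replicate 2 were almost level, while control replicates 1 and 3 were lower (log2 change 2.29, standard error 0.55, limma adjusted p = 0.0492). Without TPR D replicate 1, which had the highest level, the change was 1.68 (limma adjusted p = 0.249). SNCG, gamma-synuclein, was at 7.57, 7.04 and 11.3 FPKM in the controls and 30.5, 18 and 23.1 FPKM with TPR D (log2 change 1.53, standard error 0.29, limma adjusted p = 0.0107). AOPEP, an aminopeptidase, was at 4.42, 4.09 and 4.63 FPKM in the controls and 14.7, 9.4 and 9.45 FPKM with TPR D (log2 change 1.38, standard error 0.20, limma adjusted p = 0.0012). In SNCG and AOPEP alike TPR D replicate 1 was the highest library and no control reached any TPR D library. CHRNA3, a subunit of nicotinic acetylcholine receptors, changed by 0.96 (limma adjusted p = 0.0487), FUT4, a fucosyltransferase encoded by a single-exon gene, by 0.80 (limma adjusted p = 0.0217), and HRCT1, also of a single exon, by 1.54 (limma adjusted p = 0.0107). In FUT4 the TPR D libraries were at 4.79 to 5.06 FPKM and the controls at 2.65 to 3.31 FPKM.

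**Figure D2:**
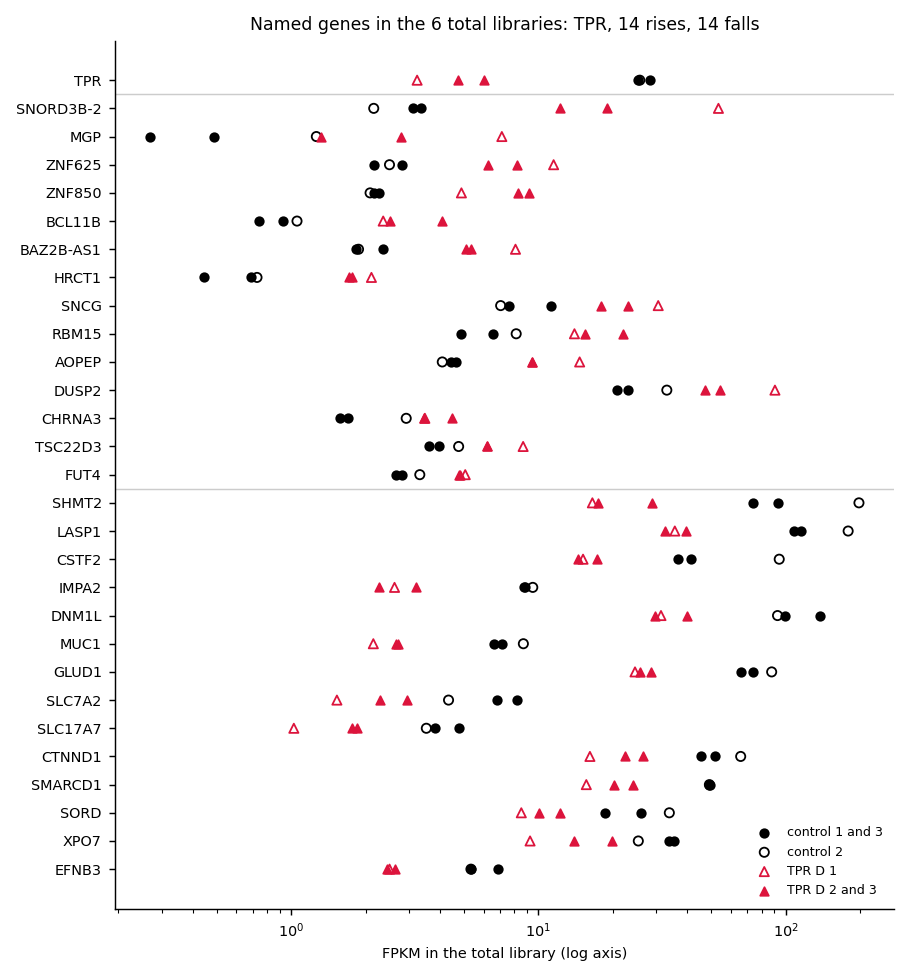
FPKM (horizontal log axis) of TPR and 28 of the 30 genes with the largest rises and falls in each of the 6 total libraries, with controls in black (replicate 2 open) and TPR D in crimson (replicate 1 open). In no gene do the values of the groups cross, as in 16.1% of all genes tested, though for MGP the nearest crimson and black values are almost level. Control replicate 2 is the highest library for SHMT2, LASP1, CSTF2, IMPA2, MUC1, GLUD1, CTNND1 and SORD.

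The named falls are given by what their products do, with enzymes first. SHMT2, the mitochondrial serine hydroxymethyltransferase that feeds one-carbon metabolism (ENSG00000182199, GRCh37 chromosome 12, 57623356 to 57628718, plus strand), was at 93.2, 198 and 74.1 FPKM in control replicates 1, 2 and 3 and 16.5, 28.7 and 17.4 FPKM in TPR D replicates 1, 2 and 3. Control replicate 2 was far above the other controls, and the TPR D libraries were below all of them (log2 change -2.37, standard error 0.32, limma adjusted p = 0.00091). The log2 change of SHMT2 was smaller, -1.99 (limma adjusted p = 0.00744), without control replicate 2. GLUD1, mitochondrial glutamate dehydrogenase (ENSG00000148672, GRCh37 chromosome 10, 88809959 to 88854600, minus strand), was at 65.9, 87.8 and 73.9 FPKM in control replicates 1, 2 and 3 and 24.6, 28.5 and 25.8 FPKM in TPR D replicates 1, 2 and 3. Its libraries agreed closely within each group, which gave the smallest adjusted p of the 30 genes (log2 change -1.44, standard error 0.17, limma adjusted p = 0.000195), and without control replicate 2 and TPR D replicate 1 the change was -1.32 (limma adjusted p = 0.00759). GLUD1 and SORD have closely related copies elsewhere in the genome, with which reads may be shared. DNM1L, the GTPase that divides mitochondria and peroxisomes (ENSG00000087470, GRCh37 chromosome 12, 32832134 to 32898584, plus strand), was at 137, 92.7 and 99.2 FPKM in control replicates 1, 2 and 3 and 31.3, 39.7 and 29.6 FPKM in TPR D replicates 1, 2 and 3. Here control replicate 2 was the lowest control, and the fall was -1.62 with it (limma adjusted p = 0.0023) and -1.76 (limma adjusted p = 0.00744) without it. IMPA2, an inositol monophosphatase, was at 8.8, 9.49 and 8.77 FPKM in the controls and 2.62, 2.26 and 3.21 FPKM with TPR D (log2 change -1.64, standard error 0.23, limma adjusted p = 0.00096). SORD, sorbitol dehydrogenase, was at 26, 33.9 and 18.6 FPKM in the controls and 8.53, 12.2 and 10.1 FPKM with TPR D (log2 change -1.24, standard error 0.21, limma adjusted p = 0.00418). In IMPA2 the controls lay within 8.77 to 9.49 FPKM, and in SORD the highest TPR D library was below the lowest control.

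Products at the cell surface or the cytoskeleton come next. LASP1, an actin-binding protein of focal adhesions (ENSG00000002834, GRCh37 chromosome 17, 37026112 to 37078023, plus strand), was at 116, 179 and 108 FPKM in control replicates 1, 2 and 3 and 35.6, 39.6 and 32.6 FPKM in TPR D replicates 1, 2 and 3. The TPR D libraries were close together and far below every control (log2 change -1.79, standard error 0.24, limma adjusted p = 0.00085). CTNND1, p120 catenin, which stabilises cadherins, was at 51.9, 65.8 and 45.3 FPKM in the controls and 16.2, 22.3 and 26.6 FPKM with TPR D (log2 change -1.26, standard error 0.26, limma adjusted p = 0.0201). MUC1, a transmembrane mucin, was at 7.1, 8.69 and 6.63 FPKM in the controls and 2.15, 2.67 and 2.71 FPKM with TPR D (log2 change -1.46, standard error 0.32, limma adjusted p = 0.0341). EFNB3, the membrane-bound ligand ephrin-B3, had TPR D libraries at 2.44 to 2.64 FPKM and controls at 5.34 to 6.89 FPKM (log2 change -1.10, standard error 0.23, limma adjusted p = 0.0216). SLC7A2, a carrier of cationic amino acids, was at 6.81, 4.33 and 8.21 FPKM in the controls and 1.53, 2.95 and 2.3 FPKM with TPR D (log2 change -1.40, standard error 0.28, limma adjusted p = 0.0201). SLC17A7, a vesicular glutamate transporter, was at 3.82, 3.52 and 4.79 FPKM in the controls and 1.03, 1.76 and 1.85 FPKM with TPR D (log2 change -1.29, standard error 0.26, limma adjusted p = 0.0201). In MUC1, SLC7A2 and SLC17A7 TPR D replicate 1 was the lowest library of the 6.

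CSTF2, a subunit of the cleavage stimulation factor that acts at the 3′ ends of pre-mRNAs (ENSG00000101811, GRCh37 chromosome X, 100075380 to 100096509, plus strand), was at 41.6, 94.2 and 36.5 FPKM in control replicates 1, 2 and 3 and 15.2, 17.3 and 14.5 FPKM in TPR D replicates 1, 2 and 3. The TPR D libraries were close together, and control replicate 2 was far above the other controls (log2 change -1.66, standard error 0.28, limma adjusted p = 0.00449). The change of CSTF2 was -1.27 (limma adjusted p = 0.0259) without control replicate 2. SMARCD1, a subunit of the SWI/SNF chromatin remodelling complexes, was at 49.4, 49.2 and 49.2 FPKM in the controls and 15.6, 24 and 20.2 FPKM with TPR D. Its controls were almost equal and the TPR D libraries were all far lower (log2 change -1.24, standard error 0.20, limma adjusted p = 0.00371). XPO7, an exportin of the importin-beta family, was at 35.4, 25.4 and 33.8 FPKM in control replicates 1, 2 and 3 and 9.26, 19.8 and 14 FPKM in TPR D replicates 1, 2 and 3. TPR D replicate 2 came nearest to the lowest control, and the change was -1.11 (limma adjusted p = 0.0201).

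Whether the genes moved with the other shRNA was asked by testing TPR D directly against TPR A in total RNA, a contrast that does not use the control libraries except in the shared spread. In this contrast 8 genes were higher and 33 lower with TPR D (0.0548% and 0.226% of those tested). None of the 15 named rises differed between the shRNAs in this test, and their differences, TPR D minus TPR A, ran from -0.17 to 2.41 on the log2 scale. RBM15 changed by 1.46 with TPR D and 1.54 with TPR A. MGP was the widest apart of the rises, with 2.29 and -0.11 (TPR D minus TPR A limma adjusted p = 0.0574, and 0.031 without control replicate 2). Of the 15 named falls, 6 were lower with TPR D than with TPR A, namely SHMT2, LASP1, DNM1L, GLUD1, SLC17A7 and EFNB3. For SHMT2 the change was -2.37 with TPR D and -0.41 with TPR A (difference -1.96, limma adjusted p = 0.00711). In the TPR A libraries SHMT2 stood at 82.3, 83.5 and 74.6 FPKM, above every TPR D library. DNM1L changed by -1.62 and -0.25 (limma adjusted p of the difference = 0.0152). The changes of SLC17A7 had opposite signs, -1.29 and 1.03 (limma adjusted p of the difference = 0.000147). Its change with TPR A was not past the threshold by itself (limma adjusted p = 0.0632, and 0.255 without control replicate 2). Apart from SLC17A7, the calls of a difference between the shRNAs were lost when single replicates were left out. With each TPR A or TPR D replicate left out in turn, and without control replicate 2, SLC17A7 passed in 7 of 7 settings, SHMT2, DNM1L and GLUD1 in 2, and LASP1 and EFNB3 in 1, without control replicate 2 (highest limma adjusted p = 0.072 for SHMT2 and 0.216 for EFNB3). MUC1, by contrast, changed by -1.46 and -1.61. TPR itself differed by 0.14 between the shRNAs (limma adjusted p = 0.999). Over all 64 genes called lower with TPR D, 12 were also lower than with TPR A, and over the 46 called higher, 0 were higher than with TPR A. The genes were chosen for their change with TPR D, which enters this contrast too, so these counts are a description. Among the 64, COX10, which makes haem for cytochrome oxidase, and TK2, the mitochondrial thymidine kinase, were also lower than with TPR A and are named after their values were seen. COX10 changed by -1.08 with TPR D and -0.01 with TPR A, and TK2 by -0.74 and 0.34.

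**Figure D3:**
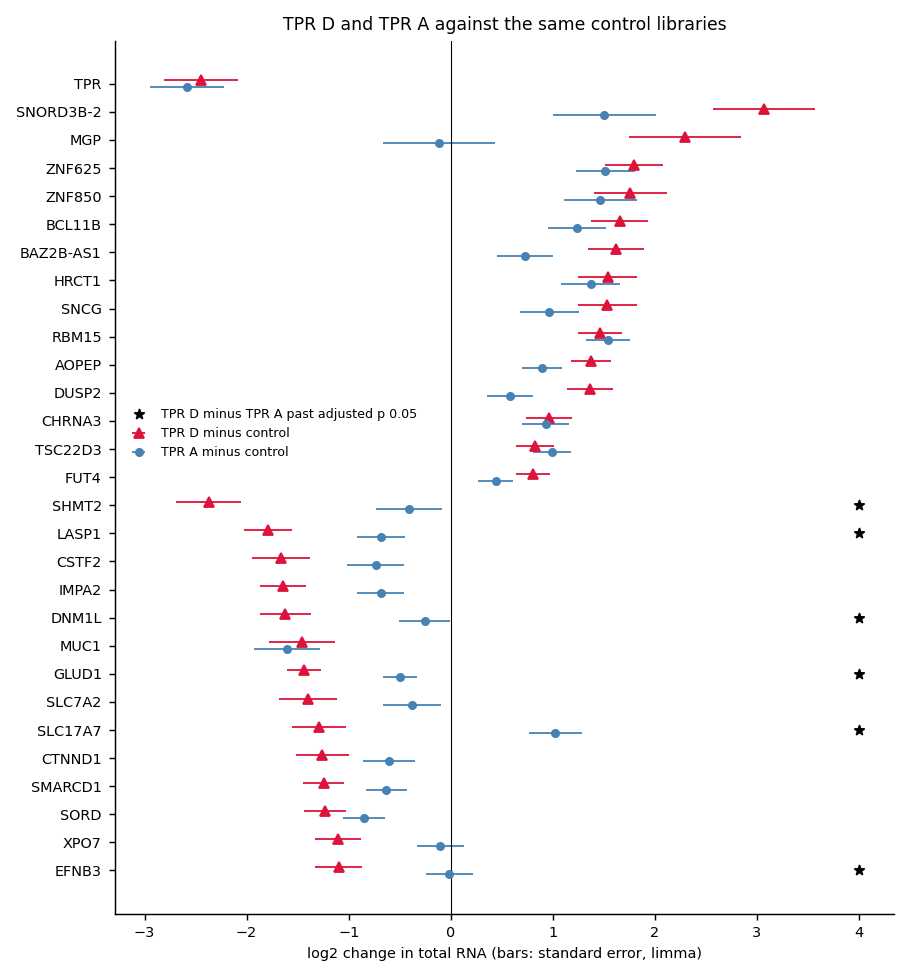
Log2 change in total RNA against the same 3 control libraries for TPR D (crimson triangles) and TPR A (blue circles), with limma standard errors as bars, for TPR and 28 of the 30 genes with the largest rises and falls. Stars mark the 6 genes, all falls, whose TPR D minus TPR A difference passed an adjusted p of 0.05, and TPR itself lies near -2.5 with both shRNAs.

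The same replicates also gave nuclear and cytoplasmic/ER RNA. In nuclear RNA 0.219% of all genes tested were called higher with TPR D and 0.26% lower, and in cytoplasmic/ER RNA 0.212% and 0.363%. Of the 15 named rises, 9 were also called higher in nuclear and 5 in cytoplasmic/ER RNA. Of the 15 named falls, 11 were called lower in nuclear and 10 in cytoplasmic/ER RNA. Without control replicate 2 these counts were 5 and 5 for the rises and 9 and 10 for the falls, with 0.0958% and 0.157% of all genes called higher and 0.192% and 0.253% lower. LASP1, for example, changed by -1.79 in total, -1.61 in nuclear and -1.56 in cytoplasmic/ER RNA. The respective values of RBM15 were 1.46, 1.37 and 1.25. All 15 falls had lower means with TPR D in both fractions, and all 15 rises had higher means in the nuclear fraction, with ZNF625 the exception in the cytoplasmic/ER fraction at -0.02. The fractions come from the same replicates as the total RNA and are not independent of it.

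Genes of the nuclear pore and of transport through it were examined as lists. Of 28 measured pore genes outside the basket, 1 was called lower and none higher. It was NUP160, a scaffold nucleoporin of the Y complex, at 23.3, 28.4 and 21.1 FPKM in the controls and 11.7, 13.6 and 12.6 FPKM with TPR D (log2 change -0.85, standard error 0.18, limma adjusted p = 0.0314). Its change was -0.77 (limma adjusted p = 0.0598) without control replicate 2. The median of this list was -0.29 with all libraries and -0.13 without control replicate 2, where the median of all genes was -0.01. Of 29 importins, exportins and their partners, 3 were called lower and none higher, where 0.438% of all genes were called lower. The count was 2 without control replicate 2 and 0 without TPR D replicate 1 as well. IPO5, an importin that carries ribosomal proteins and histones, was at 62.8, 60.5 and 53.5 FPKM in the controls and 17.7, 32.5 and 32.9 FPKM with TPR D (log2 change -1.06, standard error 0.20, limma adjusted p = 0.011). TNPO2, a transportin for hnRNP-type cargo, was at 31.7, 50.2 and 33.9 FPKM in the controls and 11.3, 21.7 and 17.9 FPKM with TPR D (log2 change -1.12, standard error 0.21, limma adjusted p = 0.0107). The change of TNPO2 was -0.95 (limma adjusted p = 0.07) without control replicate 2. In IPO5 and TNPO2, as in XPO7, TPR D replicate 1 was the lowest library, and without it the limma adjusted p was 0.1, 0.0914 and 0.142. The median of the transport receptors was -0.35, -0.26 without control replicate 2 and -0.05 without TPR D replicate 1 as well. Among 24 mRNA export factors of the NXF1, TREX and TREX-2 systems none was called. The largest values were -0.88 for THOC5, a THO complex subunit (limma adjusted p = 0.0955), and -0.79 for MCM3AP, the TREX-2 scaffold also called GANP (limma adjusted p = 0.11), and control replicate 2 was the highest library for both. The 13 lamina and envelope genes had no call, with -0.67 for LMNB2 and -0.60 for LMNA, and -0.42 and -0.13 without control replicate 2.

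Calls among RNA-processing genes are given by list, where 0.315% of all genes tested were called higher and 0.438% lower. FTO, an m6A demethylase, was called lower at 29.6, 41.5 and 32.5 FPKM in the controls and 14.1, 21.3 and 20.5 FPKM with TPR D (log2 change -0.82, standard error 0.18, limma adjusted p = 0.0361), and RBM15 was the other call among 14 m6A genes, in the opposite direction. HNRNPA1, the abundant hnRNP A1 protein whose gene has many processed copies, was the single call among 24 hnRNP genes (log2 change -0.83, standard error 0.19, limma adjusted p = 0.0361). Of those 24 genes, 1 had a log2 change above 0, with a median of -0.35, and -0.13 without control replicate 2. FTO and HNRNPA1 were not past the threshold without that replicate (limma adjusted p = 0.149 and 0.17). No gene was called among the SR proteins and CLK kinases (19 genes, median 0.07), nonsense-mediated decay and exon junction factors (18, -0.13), the nuclear exosome (22, -0.14) and the RNA interference machinery (13, 0.04). The last 3 of these medians changed sign without control replicate 2, to 0.02, 0.04 and -0.09, and that of the SR and CLK genes was 0.14. Their largest values were 1.05 and 0.83 for the splicing-linked kinases DYRK1A and CLK4, -0.61 and -0.61 for the decay factors SMG9 and SMG6, -0.75 and -0.74 for the exosome components EXOSC5 and DIS3L, -1.05 for XPO5, the exporter of pre-miRNAs, and 0.78 for DICER1, which cuts them, none past the threshold. Those of SMG9, SMG6 and EXOSC5 were -0.11, -0.26 and -0.25 without control replicate 2.

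Zinc finger genes named ZNF had a median well above that of all genes. Of 407 such genes, many of which encode C2H2 proteins that repress transcription with KRAB cofactors, 310 had a higher mean with TPR D, 4 were called higher and none lower, where 49.2% of all genes tested had a higher mean and 0.315% were called higher. The calls without control replicate 2 were 2, and without TPR D replicate 1 as well 0. The calls were ZNF625, ZNF850, ZNF708 and ZNF721, with log2 changes of 1.80, 1.76, 1.57 and 1.14. ZNF708 was at 1.19, 0.972 and 0.974 FPKM in the controls and 3.91, 2.63 and 2.95 FPKM with TPR D (limma adjusted p = 0.0341, and 0.0938 without control replicate 2, where ZNF721 had 0.161). The list median was 0.34 with all libraries, 0.22 without control replicate 2 and 0.28 without TPR D replicate 1 as well. Against the mean of control replicates 1 and 3, the median of these genes was 0.10, 0.31 and 0.23 in the 3 TPR D libraries and -0.26 in control replicate 2. It was thus above 0 in each TPR D library, and least so in replicate 1. With TPR A the list median was 0.41 against the same controls. As the genes are alike in sequence, reads may be shared between them.

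Replication-dependent histone genes, whose mRNAs normally end in a stem-loop and lack a poly(A) tail, are seen in poly(A)+ RNA only as their polyadenylated forms. None of 23 measured genes was called, while 22 had a higher mean with TPR D and the median was 0.51. The medians of the 3 TPR D libraries against controls 1 and 3 were 0.92, 0.78 and 0.35. Control replicates 1, 2 and 3 lay at 0.30, 0.22 and -0.30, so TPR D replicate 3 was scarcely above the highest control. With TPR A the list median was 1.13 against the same controls. H1-4, a linker histone, was at 1.81, 1.09 and 0.644 FPKM in the controls and 9.43, 4.04 and 1.36 FPKM with TPR D (log2 change 1.77, limma adjusted p = 0.39), and H1-1, another linker histone, changed by 1.79 (limma adjusted p = 0.41), the pair with the largest values of the list. Of 10 histone variants with poly(A) tails none was called. Among them H2AX, the variant phosphorylated at DNA breaks, changed by -0.46 (limma adjusted p = 0.562).

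Long non-coding RNAs were called higher more often than lower. Over all genes tested, 0.315% were called higher and 0.438% lower. In either direction, 0.654% of lncRNAs and 0.787% of mRNAs with known exons were called, so lncRNAs were not called more often than mRNAs. Of 1689 lncRNA genes tested, 10 were called higher and 1 lower, and the median change was 0.34. For 12381 protein-coding genes the calls were 34 and 63 and the median -0.05. This difference moved with control replicate 2, in which lncRNAs with known exons had a median of -0.49 against control replicates 1 and 3. Without that replicate the lncRNA median was 0.17, with 3 lncRNAs higher and 1 lower. It was 0.10 without TPR D replicate 1 as well, in whose library the lncRNA median was 0.41, against 0.11 and 0.10 in the other TPR D libraries. MALAT1, an abundant nuclear lncRNA, was at 82.1, 16.3 and 122 FPKM in the controls and 207, 135 and 137 FPKM with TPR D (log2 change 1.59, limma adjusted p = 0.27), and NEAT1, the scaffold of paraspeckles, at 58.1, 23 and 143 FPKM in the controls and 56.8, 150.3 and 113 FPKM with TPR D (limma adjusted p = 0.487). Control replicate 2 was the lowest library of both, and without it the change was 0.69 for MALAT1 and 0.16 for NEAT1, against 0.85 for NEAT1 with it. Host genes of small nucleolar RNAs had a median of 0.37 over 27 genes with no call (1.28 for SNHG31 and 1.17 for SNHG10 at the most), and -0.10 without control replicate 2 and TPR D replicate 1.

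Several lists of growth and housekeeping genes lay below 0 with all libraries and closer to 0 without control replicate 2. Of 37 gene lists, 7 had a median above 0 with all libraries and 18 without that replicate. Proteasome subunits (34 genes) went from -0.27 to 0.02, actin and tubulin genes (17) from -0.48 to -0.07, glycolysis genes (23) from -0.54 to -0.22, and heat shock proteins (27) from -0.25 to 0.05. None of these 4 lists held a call. The members with the largest values were -0.84 for PSMD2 and -0.77 for PSMD5 of the proteasome cap, -0.95 for the tubulin TUBB2B and -0.87 for alpha-actinin 1 (ACTN1), and 1.2 for the glucose transporter SLC2A3 and -1.02 for the phosphofructokinase PFKP. Of the chaperones, STIP1, a co-chaperone, changed by -0.64. HSP90AB1, a constitutive chaperone, shows the pattern, at 1492, 5678 and 1292 FPKM in the controls and 1152, 1588 and 1289 FPKM with TPR D. Control replicate 2 was several times above every other library, and the log2 change went from -0.66 to -0.02. Cytosolic ribosomal protein genes (86) had a median of -0.04, but TPR D replicate 1 lay at 0.59 and replicates 2 and 3 at -0.28 and -0.44 against the mean of the controls. Nuclear genes of the respiratory chain (77, 0.55, -0.32 and -0.49) and mitochondrial ribosomal protein genes (81, 0.44, -0.20 and -0.42) also had replicate 1 above and replicates 2 and 3 below the mean of the controls. Control replicate 2 was itself high in these lists, at 0.25, 0.45 and 0.49, and so raised the mean of the controls. In the mitochondrial ribosomal list it was above TPR D replicate 1, while TPR D replicate 2 lay between control replicates 2 and 3. Against control replicates 1 and 3 alone, TPR D replicates 1, 2 and 3 lay at 0.70, -0.17 and -0.33 for the cytosolic ribosomal list. The respective values were 0.85, -0.10 and -0.29 for the respiratory chain and 0.65, 0.04 and -0.19 for the mitochondrial ribosomal list. None of these 3 lists held a call, and translation factors (33 genes, median -0.32) held none either. Their largest values were -0.86 for RPS16 and -0.67 for RPL10L, -0.62 for NDUFB2 of complex I and -0.49 for ATP5F1B of ATP synthase, -0.70 for MRPS23 and -0.67 for MRPS27, and -1.12 for EIF3C and -0.82 for EIF3D, subunits of the initiation factor eIF3. Whether the difference between TPR D replicate 1 and the other TPR D replicates is biological or arose in handling was not tested.

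**Figure D4:**
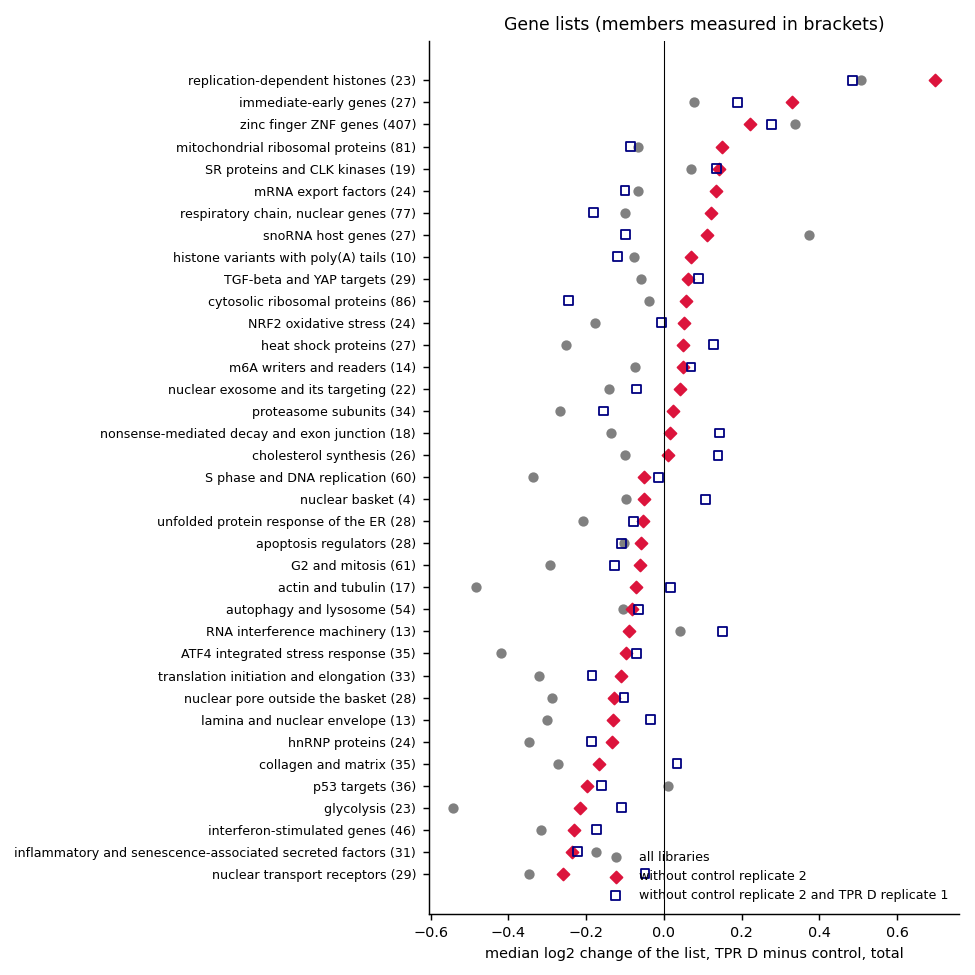
Median log2 change of 37 gene lists in total RNA (TPR D minus control, horizontal axis), with all libraries (grey circles), without control replicate 2 (crimson diamonds) and without that replicate and TPR D replicate 1 (open squares), with the number of measured members in brackets. Proteasome, heat shock and actin and tubulin medians lie below -0.2 with all libraries and within 0.1 of 0 without control replicate 2, while replication-dependent histone and zinc finger genes stay above 0 in the 3 settings.

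With all libraries, stress, cell cycle and signalling lists held at most 1 call in each direction. Over all genes tested, 0.315% were called higher and 0.438% lower. SHMT2 was the only call among 35 targets of ATF4, the factor that raises amino acid and one-carbon genes under stress, and it moved down. The list median was -0.42 with all libraries and -0.10 without control replicate 2. DUSP2 was the only call among 27 immediate-early genes (median 0.08, and 0.33 without control replicate 2, where 2 were called higher). The other of these 2 was JUN, a subunit of AP-1 named here after its values were seen, at 31.9, 68 and 27.7 FPKM in the controls and 75, 59.8 and 48.7 FPKM with TPR D. Control replicate 2 lay among the TPR D libraries, and the change was 0.70 with it (limma adjusted p = 0.175) and 1.06 (limma adjusted p = 0.0259) without it. Among 29 TGF-beta and YAP targets ID2, an inhibitor of basic helix-loop-helix factors, rose at 12.3, 14.4 and 20.1 FPKM in the controls and 57.3, 38.8 and 54.4 FPKM with TPR D (log2 change 1.77, standard error 0.34, limma adjusted p = 0.0122). This became 1.69 (limma adjusted p = 0.0535) without control replicate 2. AXL, a receptor tyrosine kinase, fell at 123, 213 and 202 FPKM in the controls and 64.5, 74.4 and 71.6 FPKM with TPR D (log2 change -1.24, standard error 0.27, limma adjusted p = 0.0317). The value for AXL was -1.13 (limma adjusted p = 0.157) without control replicate 2. In both genes the groups did not overlap. With TPR A, AXL changed by -0.03 and ID2 by 1.00 against the same controls.

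No call was made among 36 p53 targets (median 0.01), 28 genes of the unfolded protein response (-0.21), 24 NRF2 targets (-0.18), 46 interferon-stimulated genes (-0.32), 28 apoptosis regulators (-0.10), 54 autophagy and lysosome genes (-0.10) and 26 genes of cholesterol synthesis (-0.10). These medians without control replicate 2 were -0.20, -0.05, 0.05, -0.23, -0.06, -0.08 and 0.01, in the same order. CYFIP2, a p53 target of the actin-regulating WAVE complex, was at 28.7, 32.6 and 44.1 FPKM in the controls and 10.5, 27.3 and 21.4 FPKM with TPR D (limma adjusted p = 0.222), and FDXR, a mitochondrial reductase, changed by -0.82. FTH1, the ferritin heavy chain, was at 1586, 580.0 and 1825 FPKM in the controls and 3100.1, 1980.1 and 2534 FPKM with TPR D. Each TPR D library of FTH1 exceeded each control and control replicate 2 was lowest (log2 change 1.15, limma adjusted p = 0.12). PGD, an enzyme of the pentose phosphate pathway and like FTH1 an NRF2 target, was at 196, 492 and 138 FPKM in the controls and 66.1, 104 and 82.1 FPKM with TPR D (log2 change -1.44, limma adjusted p = 0.0781). The changes were 0.60 for FTH1 and -0.95 for PGD without control replicate 2. IRF9, which joins STAT proteins in interferon signalling, changed by -1.16 (limma adjusted p = 0.0917) and IFI44L, an interferon-induced gene, by 1.15 (limma adjusted p = 0.279). The other lists of this paragraph had as their largest values -0.70 for the ER stress sensor ATF6 and -0.66 for the ER chaperone HYOU1, 0.77 for the pro-apoptotic BCL2L11 and -0.75 for the anti-apoptotic BCL2L1, -0.94 for the autophagy kinase ULK1 and 0.76 for TFEB, a regulator of lysosomal genes, and 0.81 for the sterol oxidase MSMO1 and -0.58 for the desaturase FADS1. Leaving out TPR D replicate 1 moved ULK1 to -0.10 and FADS1 to 0.11, and leaving out control replicate 2 moved IFI44L to 0.60 and HYOU1 to -0.36. Genes of S phase (60) and of G2 and mitosis (61) had medians of -0.34 and -0.29, and -0.05 and -0.06 without control replicate 2, with no call in either. TACC3, a spindle protein, was at 62.2, 129 and 38.4 FPKM in the controls and 28.4, 33.5 and 25.7 FPKM with TPR D (log2 change -1.14, limma adjusted p = 0.0653). ESPL1, separase, changed by -1.05, LIG1, a DNA ligase of replication, by -0.98 and MCM5, of the replicative helicase, by -0.95, none past the threshold. Secreted inflammatory factors (31 genes, median -0.17) and collagen and matrix genes (35, -0.27) had no call with all libraries. MMP3, a matrix protease, was called higher and PLAU, urokinase, lower without control replicate 2, both named after their values were seen (1.62 and -1.10, limma adjusted p = 0.0232 and 0.017). CXCL8, a neutrophil chemokine, was at 5.61, 5.44 and 4.5 FPKM in the controls and 2.9, 1.6 and 1.03 FPKM with TPR D, lower in each TPR D library than in each control (log2 change -1.48, limma adjusted p = 0.312). The adhesion molecule ICAM1 changed by -1.42, the laminin chain LAMA4 by 1.48 and the proteoglycan DCN by 1.48, none past the threshold.

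The called genes also differed in structure and level from the average gene, by description. The 46 higher genes had a median of 4.53 FPKM and 3.25 exons, the 64 lower genes 28 FPKM and 7.25 exons, and all genes tested 12.4 FPKM and 6 exons, where exons are the median over a gene's annotated transcripts. Without control replicate 2 the values were 6.21 FPKM and 3.5 exons for the 30 higher genes and 23.4 FPKM and 6 exons for the 40 lower genes. Over all mRNAs, those with 1 exon had a median change of 0.07 (201 genes) and those with over 12 exons -0.15 (2637 genes), with 0.15 and -0.11 without control replicate 2. Among the TPR D libraries this gradient lay in replicate 1. Against control replicates 1 and 3, the medians of single-exon mRNAs were 0.38, 0.09 and 0.07 in TPR D replicates 1, 2 and 3, and those of mRNAs with over 12 exons -0.40, 0.04 and 0.03. In TPR A replicates 1, 2 and 3 they were 0.08, 0.21 and 0.07 for single-exon mRNAs and -0.12, -0.12 and 0.02 for those with over 12 exons, so replicates 1 and 2 of TPR A had a smaller difference of the same direction. Pre-mRNA length gave the same picture in the TPR D libraries, with 0.32 for mRNAs of genes under 5 kb and -0.37 for those of 100 kb or more in TPR D replicate 1, against -0.08 and 0.04 in replicate 2 and -0.08 and 0.05 in replicate 3. By mature length, TPR D replicate 1 ran from 0.11 for mRNAs under 1 kb to -0.34 for those of 4 kb or more, while replicates 2 and 3 ran the other way, from -0.08 to 0.12 and from -0.11 to 0.11. Without control replicate 2 and TPR D replicate 1 the median changes were 0.09 for single-exon mRNAs and 0.03 for those with over 12 exons. Why TPR D replicate 1 differed was not tested. Its column name belongs to the same series as those of the other replicate 1 libraries.

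**Figure D5:**
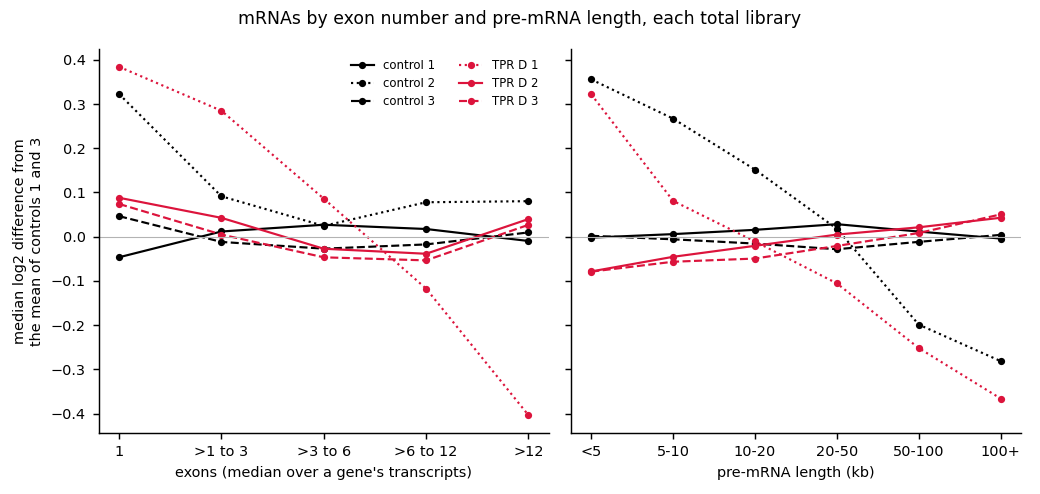
Median log2 difference of each total library from the mean of control replicates 1 and 3 (vertical axis), for mRNAs grouped by exon number (left) and by pre-mRNA length in kb (right), with controls in black and TPR D in crimson. TPR D replicate 1 falls from 0.38 to -0.40 with exon number, control replicate 2 falls with pre-mRNA length, and the other 4 libraries stay within 0.1 of 0.

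The calls were also set beside the nuclear level of each gene relative to its total level. Genes were divided into quintiles by the log2 difference of their mean nuclear and mean total level, computed without the total and nuclear libraries of control replicate 2. This difference compares relative FPKM and is not the share of a transcript that lies in the nucleus. The quintiles with the lowest and the highest difference are called least and most nuclear here. The nuclear lncRNAs MALAT1 and NEAT1 had a median of -2.40 in the control replicate 2 total library against controls 1 and 3. The deviation of the control replicate 2 library from controls 1 and 3 had a median of -0.94 in the least nuclear quintile and 0.80 in the most nuclear quintile. The median change with TPR D ran from 0.34 to -0.33 over these quintiles with all libraries and from 0.03 to -0.06 without control replicate 2. With all libraries the least nuclear quintile held 14 genes called higher and 1 lower, and the most nuclear quintile 1 higher and 14 lower. Without that replicate the counts were 3 and 5 in the least nuclear and 7 and 6 in the most nuclear quintile. Of the 64 genes called lower, control replicate 2 was the highest control in 39, and of the 46 called higher it was the lowest control in 28. The same shares were not counted over all genes tested, so these counts are a description and do not set the called genes apart.

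The cell type was checked on marker genes. VIM, a filament protein of mesenchymal cells, lay at 854 to 2500.4 FPKM in the 6 libraries, SPARC, a bone matrix protein, at 269 to 558, and RUNX2, the master factor of osteoblasts, at 7.85 to 24.5. The mature osteoblast markers BGLAP, SP7 and IBSP were at most 0.214 FPKM, and COL1A2, a chain of collagen I, at most 0.418. COL1A1, the other chain of collagen I, lay at 20.6 to 58.5 FPKM. The osteoblast-lineage markers SPP1 and ALPL lay at 1.63 to 4.15 and 1.03 to 2.79 FPKM. Some markers of other cell types were present in all 6 libraries. The keratins KRT8 and KRT18 lay at 281 to 1047 and 134 to 576 FPKM and the epithelial EPCAM at 2.96 to 6.87, while the epithelial cadherin CDH1 was at most 0.669. Of nerve markers, TUBB3 lay at 27.3 to 102 FPKM, SNAP25 at 1.76 to 4.01 and RBFOX3 at 1.01 to 3.46. HBB, of red cells, was at 0, and the endothelial cadherin CDH5 was at most 0.0444 FPKM. No marker of another cell type was called. CD68, a lysosomal marker of macrophages, was at 4.1, 3.29 and 3.53 FPKM in the controls and 4, 11.7 and 9.45 FPKM with TPR D (limma adjusted p = 0.197), with TPR D replicate 1 among the controls.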

How the data were processed

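Poly(A)+ RNA was sequenced from nuclear, cytoplasmic/ER and total samples of U2OS cells after 5 days of control, TPR A or TPR D shRNA, with 3 replicates of each. The authors quantified reads with Salmon against hg19 transcripts and deposited FPKM per gene. FPKM are not counts, so no count test was run here. Gene symbols, biotypes, exon numbers and positions (GRCh37) came from GENCODE release 44 mapped to that build, and 32776 of 34464 gene identifiers matched it. Whether the quantification used strand is not given in the sources used here.

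FPKM were scaled by median-of-ratios factors, log2(FPKM + 0.1) was taken, and nuclear-encoded genes averaging over 1 FPKM were kept. A fold change is thus on the log2(FPKM + 0.1) scale, which understates the change of low genes. All 27 libraries in 9 groups were fitted with limma 3.58.1 (R 4.3.3) with an intensity trend, and p-values were adjusted by the Benjamini-Hochberg method over all genes tested, with a threshold of 0.05. The script was run on simulated data with known changes. The simulated noise was independent for each gene and library, so outlying or related libraries were not simulated. The read depth was estimated from the steps of low values in 5647 genes with 1 annotated transcript, of which 88.2% of 5866 values in the 6 libraries lay within 0.1 of a whole read.

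Named genes were TPR, the 15 largest rises and 15 largest falls past the threshold with all libraries and without control replicate 2, and for each gene list the members past it (at most 4) or, where none passed, the 2 with the largest change; a few genes that met the rule are not reported here. The genes, lists and comparisons were chosen with earlier results of these data known. The alternatives were other pseudocounts, minima and scalings, other sets of libraries, array weights, a replicate block and each replicate left out in turn.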

Additional observations from a re-analysis of the deposited data

Results flagged for a closer look

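Of the 30 genes with the largest changes, 6 differed between the 2 shRNAs in total RNA, each lower with TPR D. The difference, TPR D minus TPR A on the log2 scale, was -1.96 for SHMT2 (limma adjusted p = 0.00711), -1.10 for LASP1 (0.0448), -1.37 for DNM1L (0.0152), -0.94 for GLUD1 (0.0133), -2.32 for SLC17A7 (0.000147) and -1.09 for EFNB3 (0.0399). In SLC17A7 the TPR A libraries were at 8.04, 8.18 and 7.58 FPKM, above every control, and the TPR D libraries below every control. In LASP1 they were at 80.6, 80.9 and 72.3 FPKM, in DNM1L at 112, 76.6 and 76.6, in GLUD1 at 49.5, 48.1 and 55.9 and in EFNB3 at 4.9, 6.1 and 5.63. With each TPR A or TPR D replicate left out in turn the difference of SLC17A7 stayed between -2.47 and -2.07 (highest adjusted p = 0.00514), and that of SHMT2 between -2.21 and -1.82 (highest adjusted p = 0.072). The cause of these differences was not tested.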

How the results depend on the processing

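The count of genes changed with TPR D (110, limma) was 44 at a minimum of 5 FPKM, 46 without control total library 2 alone, 27 without control replicate 2 and TPR D replicate 1 (also 27 with only their total libraries left out), 5 with the 9 total libraries, 5 with the 9 total libraries less control library 2, 5 with the 6 libraries compared, 813 with array weights, whose estimate did not converge, and 283 with array weights on the 9 total libraries. With replicates 2 and 3 alone it was 0, where limma gave an unadjusted p under 0.05 for 1559 genes. Leaving out 1 replicate at a time gave 31 to 114. A replicate block gave 461 calls (221 higher, 240 lower) over the 27 libraries and 4 over the 6 libraries, where TPR (-2.44, adjusted p = 0.0709) was no longer past the threshold. Deviations of same-numbered TPR D and control libraries from their group means had correlations across genes of 0.05, -0.01 and 0.20 for replicates 1, 2 and 3. Not every sample deviated most like its own number. With 3 libraries per group an outlying library shifts the deviations of the others. These correlations thus cannot settle whether same-numbered libraries vary together, and the main fit did not take the numbers as pairs. TPR was also not past the threshold with replicates 2 and 3 alone (-2.16) or without both doubtful replicates (-2.26), and stayed between -2.65 and -2.21 with single replicates left out.

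The TPR D to TPR A count (41) was 156 with the replicate block, 3 with the 9 total libraries, 8 with these less control library 2, 853 and 338 with array weights (27 and 9 libraries), 1 with replicates 2 and 3 alone and 4 to 76 with single replicates left out. Nuclear (70) and cytoplasmic/ER (84) counts ran from 17 to 66 and 21 to 89. Of the 37 lists, the number with a median above 0 (7) was 4 on values as deposited, 4 with no minimum, 11 with array weights, 18 without control total library 2 (with 27 or with 9 libraries), 13 without both doubtful replicates or their total libraries, and 6 to 18 with single replicates left out. Of 2474 values of named genes under the alternatives, 380 lost the threshold, 30 gained it and 21 changed sign, in 9 genes of which none was past the threshold. Without both doubtful replicates, or their total libraries, HYOU1 was at 0.021, HSP90AB1 at 0.084, STIP1 at 0.13, SMG9 at 0.029, SMG6 at 0.0022 and EPCAM at -0.16. With array weights STIP1 was at 0.0071, ICAM1 at 0.031 and EPCAM at -0.025 (27 libraries), and ICAM1 at 0.019 and EPCAM at -0.024 (9 libraries). With 1 replicate left out FADS1 ranged from -0.95 to 0.11 (without TPR D replicate 1) and SNAP25 from -0.31 to 0.065 (without TPR D replicate 3; 0.05 without control replicate 1). FADS1 was at 0.23 with replicates 2 and 3 alone. Of the 30 largest changes, 0 were past the threshold with the replicate block over 6 libraries. The cause of these shifts was not tested. Genes of low FPKM rest on the fewest reads, so their changes are the least precise.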
